A study of Homo sapiens with 4 samples.

Results

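The DNA replication machinery was followed in NCI-H520, an established line from a squamous carcinoma of the lung, through 43 genes listed for their known function and found by symbol among the 28277 genes of the deposited count table. The list covers the replicative helicase, its loaders and activators, the polymerases, the clamp and its loader, strand joining, single-strand binding, deoxynucleotide supply and the G1/S regulators that control them, in 11 groups. The study set 2 RNA-seq libraries of cells exposed to Hx1R8 at 10 µM for 12 h against 2 of cells that received ultrapure water instead (Vehicle), and asks which transcripts differ after Hx1R8, in a series about SOX2 self-association and drug resistance. All cells were labelled WT, the only control was water, and the labels do not describe the make-up of Hx1R8. Nothing in the labels says that the 2 libraries of a group were separate cultures, so a p-value here covers no more than the spread among these 4 libraries, which may be technical.

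Replication starts when the origin recognition complex, CDC6 and CDT1 load the MCM2-7 ring onto DNA in G1. CDC45 and GINS join the ring to form the active helicase in S phase, polymerase alpha-primase lays down primers, and polymerases epsilon and delta extend the leading and lagging strands, held on DNA by the PCNA clamp. Many of these genes are transcribed together as cells enter S phase, under E2F factors, and tumour lines that divide fast usually express them strongly. RNA was measured in bulk, so a smaller share of cells in S phase and less RNA per cell cannot be told apart.

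Total counts ran from 17259403 to 20920857 per library. Levels are given as CPM, the count of a gene scaled to a common library total, with TMM factors of 0.9976 to 1.0024. The largest difference between any pair of libraries was between the Vehicle replicates (2.94 chi-square units per gene). The closest pair was Hx1R8 replicate 1 with Vehicle replicate 1 (1.48), and the Hx1R8 replicates were at 1.61. Of 5 epithelial markers EPCAM, KRT8, KRT18 and KRT19 were abundant, and the 5 summed to 1766 and 1751 CPM in Hx1R8 and 1751 and 1806 CPM in Vehicle. CDH1 was far lower, at 12.5 and 13.3 CPM in Hx1R8 and 13.3 and 14.3 CPM in Vehicle. Of 8 squamous and basal markers SOX2 was abundant, at 522 and 498 CPM in Hx1R8 and 541 and 515 CPM in Vehicle, but 4 were below 1 CPM in every library, among them TP63, and the basal genes KRT14 and DSG3 had 0 reads, which allows up to 0.143 to 0.174 CPM per library. Immune markers summed to at most 2.23 CPM and fibroblast and endothelial markers to at most 9.20 CPM in any library, the latter mostly COL1A1 (7.32 to 8.23 CPM). None of these 25 markers passed the test below.

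Many of the listed genes share a promoter element. RefSeq windows from 250 bases before to 50 bases after the transcript start (GRCh38.p14) were at hand for 36 of the 43 genes. Not matched were MCM4, MCM5, GINS4, POLD3, RPA2, RPA3 and CCNE2. The words TTTCCCGC, TTTCGCGC, TTTGCCGC and TTTGGCGC, the usual forms of the E2F site, were searched on both strands, and 2 matches may overlap. At least 1 stood in a window of 20 of the 36 genes (55.6%), of 16 of 48 other replication genes (33.3%), of 6.60% of the tested genes with a window and of 3.99% of all 27305 genes with one. CCAAT stood in 63.9% of the 36, against 43.2% of the tested genes, and TTTGAA, the core of the CHR element of mitotic genes, in 1 of the 36 (2.78%), against 13.5% of the tested genes. A match is a string of letters and was not tested as a binding site.

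Stretches upstream of the start are shown for 4 genes that the results below return to, 5′ to 3′ on the gene's strand, with the matches in capitals. MCM6 is at chr2:135876497-135876620 (minus strand), TYMS at chr18:657589-657646 (plus strand), E2F1 at chr20:33686386-33686443 (minus strand) and E2F2 at chr1:23531243-23531300 (minus strand), on GRCh38.p14.
MCM6: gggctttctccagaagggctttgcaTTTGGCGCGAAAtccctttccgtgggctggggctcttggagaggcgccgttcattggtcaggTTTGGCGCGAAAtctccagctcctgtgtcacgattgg
TYMS: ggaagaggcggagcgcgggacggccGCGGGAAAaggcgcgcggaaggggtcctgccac
E2F1: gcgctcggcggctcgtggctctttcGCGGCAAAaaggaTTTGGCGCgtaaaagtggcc
E2F2: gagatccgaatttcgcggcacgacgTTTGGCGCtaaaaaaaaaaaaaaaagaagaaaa
MCM6 has 4 matches in 2 stretches, each read on both strands, the first beginning 152 bases before the start. E2F1 has 2, beginning 33 and 20 bases before its own start.

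No replication gene changed past the threshold after Hx1R8. By edgeR's quasi-likelihood test over 14482 genes, 0 of the 43 genes were higher and 0 were lower (adjusted p = 0.9999 for each), against 0.0138% of all tested genes higher and 0.00691% lower, which is 3 genes (0.0207%). At an unadjusted p under 0.05 there were also 0 of the 43 genes, with edgeR, DESeq2 and limma-voom alike, against 3.39% of all tested genes with edgeR. Of the 43, 19 lay above 0 and 24 below, with a median log2 fold change of -0.0054, against -0.0018 over all tested genes. Fold changes ran from 0.923 (E2F2) to 1.08 (TYMS). Without Vehicle replicate 1 the test gave 41 genes higher and 38 lower over the whole table, with 0 of the 43 in either direction.

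The libraries bounded these differences closely. All 43 genes passed the low-count filter, with 148 to 11341 reads per gene and library, and 41 of them had 95% intervals within 1.2-fold of no change, against 57.6% of all tested genes and 85.4% of the tested genes in the same CPM range. The exceptions were POLE2 (fold 0.949, 0.801 to 1.12) and PRIM1 (fold 1.08, 0.972 to 1.21). The CPM range ran from 9.71 (POLE2) to 541. Its genes were not matched to the levels of the 43, of which 19 were above 100 CPM. The intervals describe these 4 libraries and rest on 2 residual degrees of freedom with 36.9 added from all genes.

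**Figure D1:**
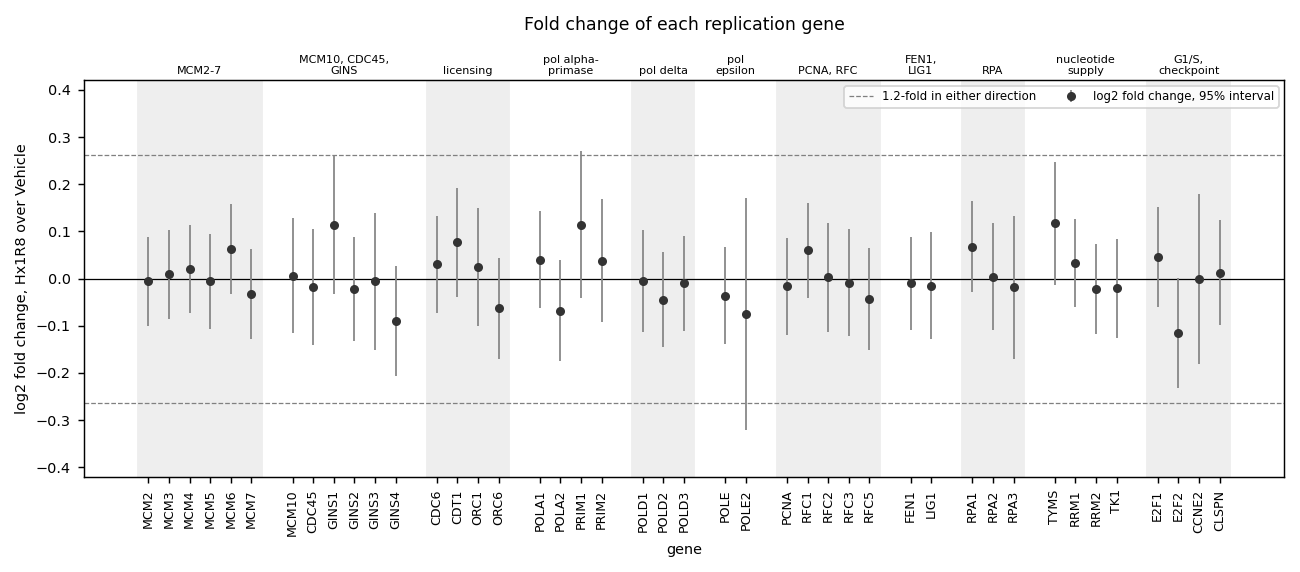
Log2 fold change, Hx1R8 over Vehicle, of the 43 replication genes by group (points) with 95% intervals (lines, edgeR, 2 libraries each). Every interval crosses 0, and those of PRIM1 and POLE2 alone pass the dashed lines at 1.2-fold.

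By the median, replicates of a group differed from each other more than the groups did. In 33 of the 43 genes (76.7%) the larger of the replicate differences exceeded the group difference, as in 81.3% of all tested genes. The median absolute log2 difference was 0.025 between groups, 0.038 between the Hx1R8 replicates and 0.054 between the Vehicle replicates. A replicate difference is between single libraries and a group difference between groups of 2, so without any effect the former is usually larger. Both Hx1R8 libraries were above both Vehicle libraries in 8 genes, against 14.7% of all tested genes, and below both in 5, against 15.2%, which makes 13 genes in either direction, against 29.8% of all tested genes. In 8 genes both Hx1R8 libraries lay between the Vehicle libraries (18.6%, against 24.5% of all tested genes). These shares were near those of the whole table.

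**Figure D2:**
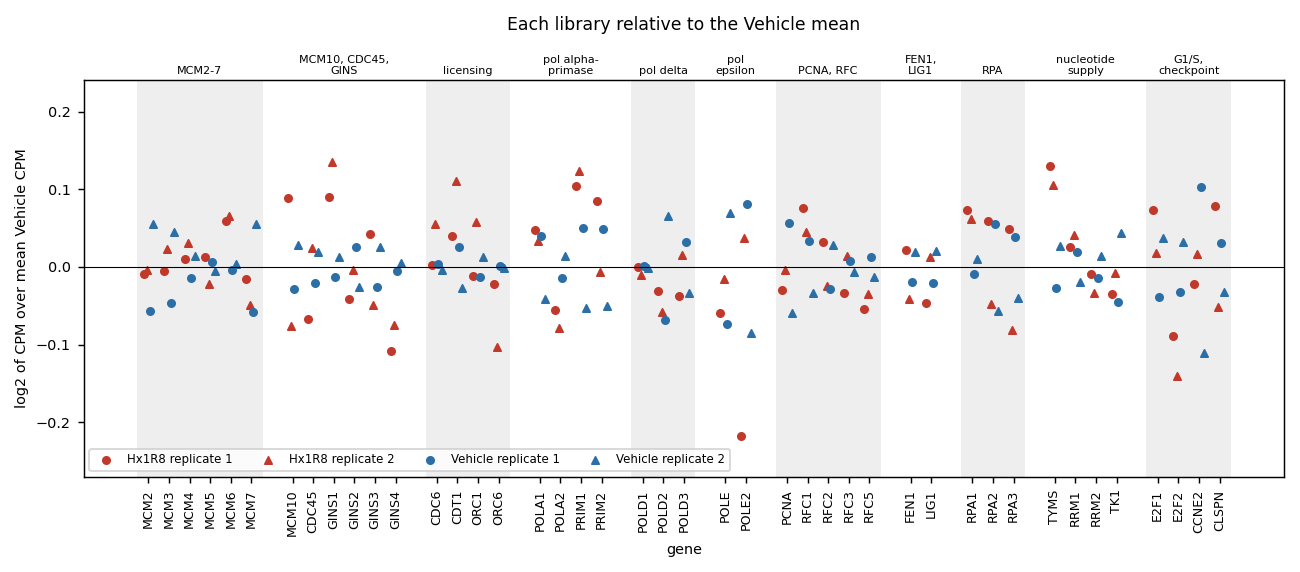
Log2 of each library's CPM over the mean Vehicle CPM, for the 43 genes by group. Circles are replicate 1 and triangles replicate 2. The Vehicle triangles lie above the Vehicle circles for MCM2, MCM7, POLD2 and POLE, and the Hx1R8 points of these genes fall between them.

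The MCM2-7 ring, which unwinds the parental strands, held the 2 highest levels per length of the set, MCM7 and MCM2, and did not separate the groups in 5 of its 6 subunits. MCM7 was at 541 and 529 CPM in Hx1R8 and 526 and 569 CPM in Vehicle, and MCM2 at 539 and 541 CPM in Hx1R8 and 521 and 564 CPM in Vehicle. For both genes, and for MCM3 (351 and 358 CPM in Hx1R8, 341 and 364 CPM in Vehicle), the Hx1R8 libraries lay inside the range of the Vehicle libraries. MCM4 was at 280 and 284 CPM in Hx1R8 and 275 and 281 CPM in Vehicle, and MCM5 at 127 and 124 CPM in Hx1R8 and 126 and 125 CPM in Vehicle, with overlapping groups. MCM6 (chr2:135839626-135876443, hg38) was the 1 subunit whose groups did not overlap, against 29.8% of all tested genes. It was at 216 and 217 CPM in Hx1R8 and 207 and 208 CPM in Vehicle. Its log2 fold change was 0.06 (SE 0.05, 95% interval of the fold 0.978 to 1.12) and lay between 0.06 and 0.07 with each library left out. Here and below, where groups do not overlap, leaving out 1 library can hardly turn the sign, so the range gives size only.

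The ring holds 1 copy of each subunit, and the transcripts differed widely per length of listed exon. That length joins all exons listed for a gene, and which of them the expressed transcripts use was not tested. Levels of different genes, here and below, therefore compare only roughly. MCM7 stood at 172 ± 2.81 CPM per kilobase of exon in Hx1R8 and 176 ± 9.83 in Vehicle, and MCM5 at 36.3 ± 0.608 in Hx1R8 and 36.4 ± 0.205 in Vehicle (SD, n = 2 each). The order MCM7, MCM2, MCM3, MCM4, MCM6, MCM5 was the same in each of the 4 libraries. MCM7 exceeded MCM5 by 4.63-fold to 5.05-fold, while the neighbours MCM7 and MCM2 differed by 1.08-fold to 1.12-fold, with ranges that did not overlap.

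**Figure D3:**
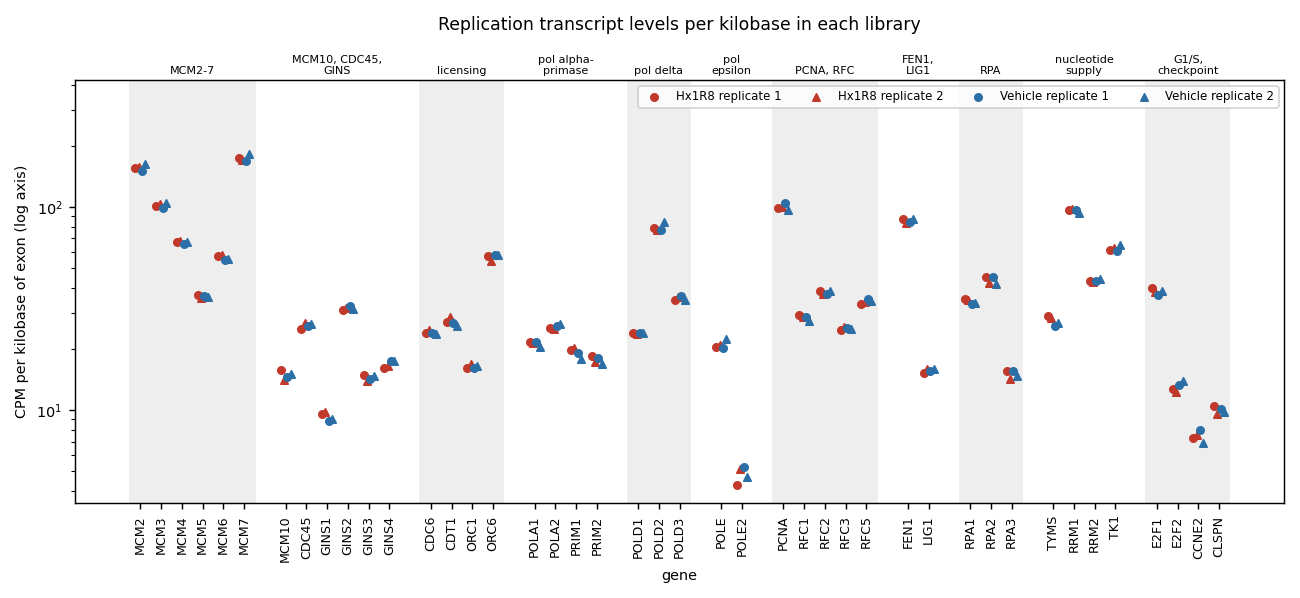
CPM per kilobase of exon (log axis) in each library for the 43 genes by group, with exon length counted on the chromosome alone. Circles are replicate 1 and triangles replicate 2. The range over genes, 36.7-fold in Hx1R8 from POLE2 to MCM7, is far wider than the largest range over libraries of 1 gene, 1.23-fold for POLE2.

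The factors that turn the loaded ring into an active helicase leaned both ways, and none passed the test. GINS1, a subunit of the 4-part GINS complex (chr20:25407673-25448563), was at 32.7 and 33.7 CPM in Hx1R8 and 30.5 and 31.0 CPM in Vehicle, with both Hx1R8 libraries higher. Its log2 fold change was 0.11 (SE 0.07, fold interval 0.978 to 1.198), and 0.09 to 0.14 with each library left out. GINS4, another subunit, lay the other way, at 60.9 and 62.4 CPM in Hx1R8 and 65.4 and 65.9 CPM in Vehicle (log2 -0.09, SE 0.06). Neither passed the test, and 29.8% of all tested genes likewise had groups that did not overlap. GINS2 was at 81.5 and 83.6 CPM in Hx1R8 and 85.3 and 82.3 CPM in Vehicle, and GINS3 at 34.5 and 32.4 CPM in Hx1R8 and 32.9 and 34.1 CPM in Vehicle. CDC45, the helicase cofactor, was at 54.7 and 58.2 CPM in Hx1R8 and 56.5 and 58.1 CPM in Vehicle. In these 3 genes the groups overlapped. MCM10, which helps to activate the helicase, had the second largest replicate difference within Hx1R8, at 71.7 and 64.0 CPM, against 66.1 and 68.7 CPM in Vehicle. Per kilobase of listed exon GINS2 was highest at 31.4 ± 0.569 CPM in Hx1R8 and 31.9 ± 0.804 in Vehicle (SD, n = 2 each). GINS1 was lowest at 9.68 ± 0.214 in Hx1R8 and 8.95 ± 0.109 in Vehicle (SD, n = 2 each). GINS holds 1 copy of each subunit. MCM10 and GINS3 did not differ beyond their ranges.

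Of the licensing genes, which load the ring, CDT1 and ORC6 had groups that did not overlap, in opposite directions, against 29.8% of all tested genes. CDT1, the loader that is destroyed in S phase (chr16:88803789-88809258), was at 72.5 and 76.2 CPM in Hx1R8 and 71.8 and 69.3 CPM in Vehicle. The log2 fold change was 0.08 (SE 0.06, fold interval 0.974 to 1.14), and 0.04 to 0.11 with each library left out. ORC6, the smallest origin recognition subunit, was at 95.7 and 90.5 CPM in Hx1R8 and 97.3 and 97.1 CPM in Vehicle (log2 -0.06, SE 0.05). Neither passed the test. CDC6, the ATPase that brings CDT1 and the ring to the origin, was at 109 and 113 CPM in Hx1R8 and 109 and 109 CPM in Vehicle, and ORC1 at 51.1 and 53.6 CPM in Hx1R8 and 51.1 and 52.0 CPM in Vehicle. Both overlapped. Per kilobase ORC6 stood at 55.6 ± 2.20 CPM in Hx1R8 and 58.1 ± 0.104 in Vehicle, and ORC1 lowest at 16.5 ± 0.563 in Hx1R8 and 16.3 ± 0.198 in Vehicle (SD, n = 2 each).

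Polymerase alpha-primase makes the RNA-DNA primers, and its 4 subunits had the narrowest range of levels per length of the 11 groups. Per kilobase the highest, POLA2, exceeded the lowest, PRIM2, by 1.38-fold to 1.59-fold. PRIM1, the catalytic primase (chr12:56731580-56752323), was at 28.3 and 28.7 CPM in Hx1R8 and 27.3 and 25.4 CPM in Vehicle, both Hx1R8 libraries being higher. Its log2 fold change was 0.11 (SE 0.08), and 0.07 to 0.17 with each library left out. POLA2, the regulatory subunit, lay lower in both Hx1R8 libraries, at 89.9 and 88.4 CPM, against 92.5 and 94.4 CPM in Vehicle (log2 -0.07, SE 0.05). Neither passed the test, and 29.8% of all tested genes likewise had groups that did not overlap. POLA1, the catalytic polymerase, was at 119 and 118 CPM in Hx1R8 and 119 and 112 CPM in Vehicle, and PRIM2, the large primase subunit, at 50.5 and 47.4 CPM in Hx1R8 and 49.3 and 46.0 CPM in Vehicle, with overlap.

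The 5 listed subunits of the leading and lagging strand polymerases showed no separation of the groups, which 29.8% of all tested genes did. POLE, the catalytic subunit of polymerase epsilon (chr12:132623762-132687342), was at 159 and 164 CPM in Hx1R8 and 158 and 174 CPM in Vehicle, with a log2 fold change of -0.04 (SE 0.05, fold interval 0.908 to 1.05). POLD2, the small subunit of polymerase delta (chr7:44114680-44123570), was at 182 and 179 CPM in Hx1R8 and 177 and 195 CPM in Vehicle, at -0.04 (SE 0.05, fold interval 0.904 to 1.04). In both, Vehicle replicate 2 was the highest library, and without it the sign turned, to 0.04 for POLE and 0.03 for POLD2. POLD1, the catalytic subunit of polymerase delta, varied least of all 43 genes, at 84.8 and 84.2 CPM in Hx1R8 and 84.9 and 84.8 CPM in Vehicle. POLD3, an accessory subunit, was at 143 and 148 CPM in Hx1R8 and 150 and 143 CPM in Vehicle. POLE2, the second subunit of polymerase epsilon, had the lowest level per length of the set and varied most, at 8.60 and 10.3 CPM in Hx1R8 and 10.6 and 9.42 CPM in Vehicle. Per kilobase POLE exceeded it by 3.84-fold to 4.76-fold, and POLD2 exceeded POLD1 by 3.21-fold to 3.52-fold.

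In the clamp and its loader the groups overlapped in 3 of 5 genes. They did not in RFC1 and RFC5, against 29.8% of all tested genes. PCNA, the sliding clamp, was at 138 and 140 CPM in Hx1R8 and 146 and 135 CPM in Vehicle. RFC1, the large subunit of the loader (chr4:39287456-39366362), was at 144 and 141 CPM in Hx1R8 and 140 and 133 CPM in Vehicle, a log2 fold change of 0.06 (SE 0.05, fold interval 0.972 to 1.12) that ran from 0.03 to 0.09 with each library left out. RFC5, a small loader subunit, was lower in both Hx1R8 libraries, at 84.3 and 85.4 CPM, against 88.3 and 86.7 CPM in Vehicle (log2 -0.04, SE 0.05). RFC1 and RFC5 did not pass the test. RFC2 was at 71.6 and 68.8 CPM in Hx1R8 and 68.6 and 71.3 CPM in Vehicle, and RFC3 at 70.6 and 73.0 CPM in Hx1R8 and 72.6 and 71.9 CPM in Vehicle. Per kilobase PCNA stood at 99.4 ± 1.22 CPM in Hx1R8 and 101 ± 5.68 in Vehicle (SD, n = 2 each), and RFC1, RFC2, RFC3 and RFC5 lay between 25.1 and 38.0 in Hx1R8. RFC4, the remaining loader subunit and not among the 43 genes, stood higher, at 131 ± 3.60 CPM per kilobase in Hx1R8 and 131 ± 1.49 in Vehicle (SD, n = 2 each). PCNA has 73.3% of its exon length to itself and overlaps PCNA-AS1 over the remainder.

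Of the genes for Okazaki fragment joining and single-strand binding, RPA1 alone had groups that did not overlap, against 29.8% of all tested genes. None passed the test. FEN1, the flap nuclease, was at 176 and 168 CPM in Hx1R8 and 171 and 175 CPM in Vehicle. LIG1, the ligase that seals the nicks (chr19:48115445-48170603), was at 71.1 and 74.1 CPM in Hx1R8 and 72.3 and 74.5 CPM in Vehicle, with a log2 fold change of -0.02 (SE 0.06, fold interval 0.915 to 1.07) whose sign turned without Vehicle replicate 2 and without Hx1R8 replicate 1. Per kilobase FEN1 exceeded LIG1 by 5.25-fold to 5.71-fold. RPA1, the large subunit of the single-strand binding trimer (chr17:1830005-1900082), was at 171 and 170 CPM in Hx1R8 and 161 and 164 CPM in Vehicle, both Hx1R8 libraries being higher. The log2 fold change was 0.07 (SE 0.05, fold interval 0.980 to 1.12), and 0.06 to 0.08 with each library left out. RPA2 was at 89.4 and 83.0 CPM in Hx1R8 and 89.2 and 82.5 CPM in Vehicle, and RPA3 at 31.6 and 28.9 CPM in Hx1R8 and 31.4 and 29.7 CPM in Vehicle. In both, replicate 1 was the higher library of each group. RPA is a trimer with 1 copy of each subunit, and per kilobase RPA2 exceeded RPA3 by 2.85-fold to 2.95-fold.

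Among the genes that supply deoxynucleotides, TYMS had the highest log2 fold change of the set. TYMS, which makes thymidylate (chr18:657653-673577), was at 46.7 and 45.9 CPM in Hx1R8 and 41.9 and 43.5 CPM in Vehicle, with groups that did not overlap. The log2 fold change was 0.12 (SE 0.06, fold interval 0.990 to 1.19), did not pass the test, and ran from 0.09 to 0.15 with each library left out. TYMS has 33.5% of its exon length to itself and overlaps ENOSF1 and TYMSOS, on the other strand, over the remainder, and without a stated strand setting their reads cannot be told apart. RRM1, the large subunit of ribonucleotide reductase, was at 347 and 350 CPM in Hx1R8 and 345 and 336 CPM in Vehicle. Its groups, like those of TYMS, did not overlap, as in 29.8% of all tested genes. The log2 fold change of RRM1 was 0.03 (SE 0.05). RRM2, the small subunit, was at 196 and 193 CPM in Hx1R8 and 196 and 199 CPM in Vehicle, and TK1, the salvage thymidine kinase, at 104 and 106 CPM in Hx1R8 and 103 and 110 CPM in Vehicle, both with overlap. Per kilobase of listed exon the order was RRM1, TK1, RRM2, TYMS in each library, with RRM1 at 97.3 ± 0.721 CPM in Hx1R8 and 95.1 ± 1.85 in Vehicle (SD, n = 2 each). If reads on shared bases were not counted, TYMS stood at 85.8 CPM per kilobase of unshared exon in Hx1R8 and 79.0 in Vehicle, and the order was RRM1, TYMS, TK1, RRM2.

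Of the regulators, E2F2 had the lowest fold change and the smallest unadjusted p of the 43 genes. E2F2, an activator of S phase genes (chr1:23506438-23531233), was at 66.4 and 64.1 CPM in Hx1R8 and 69.0 and 72.2 CPM in Vehicle. Both Hx1R8 libraries were lower, as in 15.2% of all tested genes. The log2 fold change was -0.12 (SE 0.06, fold interval 0.852 to 1.0007; edgeR adjusted p = 0.9999), and -0.15 to -0.08 with each library left out. E2F1, its close relative, leaned the other way with overlapping groups, at 107 and 103 CPM in Hx1R8 and 99.0 and 104 CPM in Vehicle (log2 0.04, SE 0.05). The table lists the 5196 exon bases of E2F2 a second time on an alternate copy of the region, and whether reads that match both copies were counted is not stated. Counted on the chromosome alone, E2F1 exceeded E2F2 per kilobase by 2.77-fold to 3.11-fold. CCNE2, the cyclin E2 gene, was at 20.0 and 20.5 CPM in Hx1R8 and 21.8 and 18.8 CPM in Vehicle, and CLSPN, the replication checkpoint adaptor claspin, at 97.6 and 89.2 CPM in Hx1R8 and 94.5 and 90.4 CPM in Vehicle. Both overlapped. CCNE2 has 44.2% of its exon length to itself and overlaps INTS8 over the remainder. If reads on shared bases were not counted, its level was 16.8 CPM per kilobase in both Hx1R8 and Vehicle, above E2F2 and CLSPN.

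**Figure D4:**
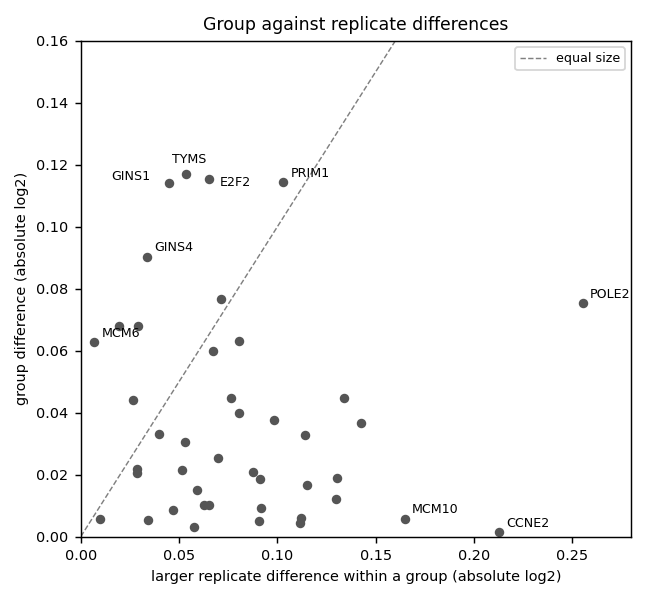
Absolute log2 difference between Hx1R8 and Vehicle (vertical) against the larger absolute log2 difference between replicates of a group (horizontal), 1 point per gene. Of the 43 points 33 lie below the dashed line of equal size, and TYMS, GINS1, E2F2, GINS4 and MCM6 are among those above it.

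Replication genes outside the list gave no call in either direction. Of 59 further genes, from the other origin recognition subunits to histone chaperones and the remaining E2F and cyclin genes, 58 were tested and CHTF8 was not. CHTF8 had 0 reads in every library and has 0% of its exon length to itself, overlapping DERPC and, on the other strand, HAS3. Whether reads on shared bases were counted was not tested. None of the 58 genes was higher or lower by edgeR, DESeq2 or limma-voom. At an unadjusted p under 0.05 there were 2 with edgeR (3.45%, against 3.39% of all tested genes). Their median log2 fold change was 0.01, with 37 above 0 and 21 below. Over all tested genes it was -0.0018, with 7087 above 0 and 7395 below. RNASEH2C, a subunit of the nuclease that removes ribonucleotides, was at 44.0 and 40.8 CPM in Hx1R8 and 47.2 and 47.1 CPM in Vehicle (log2 -0.16, SE 0.07). RNASEH2C has 69.8% of its exon length to itself and overlaps KAT5, on the other strand, over the remainder. TIPIN, a fork protection factor, was at 32.2 and 32.4 CPM in Hx1R8 and 29.9 and 28.2 CPM in Vehicle (log2 0.15, SE 0.07). ORC5 was at 38.5 and 34.0 CPM in Hx1R8 and 32.7 and 32.4 CPM in Vehicle, and MCMBP, an MCM-binding protein, at 147 and 145 CPM in Hx1R8 and 140 and 134 CPM in Vehicle. None of these 4 genes, chosen for their small p, passed the test. Over the 58 genes the groups did not overlap in 15 (25.9%), against 29.8% of all tested genes. In 12 (20.7%, against 14.7%) both Hx1R8 libraries were higher, and in 3 (5.17%, against 15.2%) both were lower. This lean was not tested.

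Grouped by promoter, the 20 genes with an E2F word had a median log2 fold change of -0.0056 and 9 of them lay above 0. The 16 with none had a median of -0.0013 and 8 above 0. On listed exon length the order of levels per kilobase was the same in all 4 libraries in 10 of the 11 groups, and 29 of 32 neighbouring pairs had ranges that did not overlap. The exceptions were MCM10 with GINS3, PRIM1 with PRIM2 and CCNE2 with E2F2, the last of which changed places between libraries. With exon length counted on the chromosome alone, which changes E2F2, the order held in all 11 groups and 30 pairs did not overlap. Over all 43 genes the highest level per kilobase (MCM7) was 36.7 times the lowest (POLE2) in Hx1R8 and 35.4 times in Vehicle.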

How the data were processed

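The authors deposited raw counts of reads per gene, 1 column per library, with exon coordinates, strand and summed exon length per gene, per the file headers. STAR 2.7.9 and the build hg38 are named in the submitters' processing notes. Which counting tool, annotation and strand setting were used is not stated. Per the labels' protocols RNA was taken with TRIzol and libraries were made with an ABclonal kit.

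Counts of 28277 genes were kept after 2 lines holding 1 broken row without reads were left out. The test was that of edgeR 4.0.16 under R 4.3.3 (quasi-likelihood, TMM, filterByExpr, group as the only term, two-sided, Benjamini-Hochberg over all 14482 tested genes, threshold 0.05), a method also tested on simulated data. Intervals are 95%, and the intervals and the floor of 3 counts cover counting error and the spread of these libraries only. Listed exon length joins all exons listed for a gene, which need not be those of the expressed transcripts. Levels per kilobase are CPM divided by listed exon length, except where exon length on the chromosome alone or on unshared bases is named. The first of these changes E2F2 only among the members. Libraries differed by more than sampling noise, so none was counted as a copy.

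Members, lists and tests were chosen with earlier results of these data known. All members are given. Full statistics are given by rule for the smallest unadjusted p per group, and 4 of the other genes are named by the same measure. Statistics of further members (those whose groups do not overlap, and E2F1) were added after their values were seen. Alternatives were other factors, filters, DESeq2 1.42.0, limma-voom (limma 3.58.1), robust dispersions, the replicate block and leaving out each library.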

Additional observations from a re-analysis of the deposited data

How the results depend on the processing

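The counts over replication genes held under all 12 alternatives: 0 of the 43 and 0 of the 58 others were higher or lower each time. The lowest adjusted p of any of the 43 was 0.264, without Vehicle replicate 1, where 5 were at an unadjusted p under 0.05. Leaving out a library leaves a lone sample that is assumed to vary like the other group. The count within 1.2-fold was 41 and ran from 35 to 41 over the alternatives. The median log2 fold change was -0.0054, and 0.0050 and 0.010 without Vehicle replicates 1 and 2. Over all genes 1 gene was higher with DESeq2 and 1 with robust dispersions, and leaving out each library gave 2 to 41 higher and 1 to 38 lower, the most without Vehicle replicate 1. The cause was not tested. With the replicate block 2 genes were higher and 1 lower, and the 43 genes had a median of -0.0051. The labels do not say whether samples of the same number were prepared together. Same-numbered deviations correlated at 0.031 over all tested genes, which cannot exclude a shared preparation, and pairing was not tested otherwise.

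Of 516 recomputed values of the 43 genes 42 changed sign, 3 with all libraries kept, all CCNE2 (0.0031 without the filter, 0.0025 with limma-voom, 0.0027 with the replicate block). The cause was not tested. With 1 library left out the sign turned in 24 genes, with these ranges: MCM10 (-0.074 to 0.089), CDC45 (-0.067 to 0.026), PRIM2 (-0.0092 to 0.087), POLD3 (-0.040 to 0.023), POLE2 (-0.22 to 0.038), RFC2 (-0.026 to 0.033), RFC3 (-0.034 to 0.015), LIG1 (-0.046 to 0.014), RPA2 (-0.050 to 0.060), CCNE2 (-0.10 to 0.11), CLSPN (-0.050 to 0.078), MCM3 (-0.036 to 0.058), MCM5 (-0.021 to 0.012), GINS3 (-0.047 to 0.042), ORC1 (-0.012 to 0.059), FEN1 (-0.040 to 0.021), RPA3 (-0.080 to 0.049), GINS2 (-0.045 to 0.0050), PCNA (-0.071 to 0.042), MCM2 (-0.061 to 0.053), MCM7 (-0.089 to 0.027), POLD2 (-0.11 to 0.025), POLE (-0.11 to 0.038), TK1 (-0.064 to 0.026). Divided by exon bases shared with no other gene, which moved TYMS above TK1 and RRM2 and CCNE2 above E2F2 and CLSPN, the Vehicle level per kilobase was 79.0 for TYMS, 137 for PCNA, 16.8 for CCNE2, 17.97 for GINS4 and 13.7 for E2F2, against 26.5, 101, 7.44, 17.4 and 6.80 on the listed length. On the chromosome alone, an alternative chosen after seeing the data, E2F2 was at 13.6. POLE2, with the lowest count (148 reads in Hx1R8 replicate 1), had the widest interval of the 43 genes, and the parts of depth and replicate spread in it were not tested.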
